A study of Mus musculus with 6 samples.

Results

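Long noncoding RNAs (lncRNAs) are transcripts longer than most small RNAs that are not known to be translated into a protein. Some stay in the nucleus and hold nuclear bodies together, some are precursors of small nucleolar RNAs (snoRNAs) or microRNAs, and some run across or against protein-coding genes. The lncRNAs described here are the rows of the deposited liver gene table that carry the gene biotype lncRNA and have a mean of at least 200 reads over the 6 libraries. The rule chose 224 of 12570 lncRNA rows, of which 3569 had any read, in a table of 45777 genes. They were chosen by this mean read count and the biotype alone, not by the difference between the genotypes. Just inside it stood Snhg17, LOC115486907 and Gm40842, with means of 205.2, 205.3 and 206.3 reads, and just outside it Gm35959, Gm46583 and Gm21286, with means of 197.5, 196.7 and 195.3 reads.

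Liver RNA came from male C57BL/6 mice on a high-fat diet (HFD), with 3 Fpn flox/flox littermates (LT) and 3 Alb-Cre; Fpn flox/flox mice (Fpn-LKO), 1 library per mouse. Both genotypes carry the floxed alleles of Slc40a1, which encodes the iron exporter ferroportin (FPN), and only Fpn-LKO mice carry Cre, driven by the albumin promoter and so directed at hepatocytes; other liver cells keep the gene. According to the methods, the floxed line came on another strain background and was bred back to C57BL/6J. The age of the mice is not in the labels, and LT mice without Cre do not control for Cre itself. Total counts lay between 43086184 and 47778683 per library. Slc40a1 had 126 to 180 CPM (reads scaled to library depth, with TMM factors) in LT and 143 to 176 CPM in libraries that carry the label Fpn-LKO. Its edgeR quasi-likelihood log2 fold change was 0.00728 (standard error 0.161, Benjamini-Hochberg adjusted p = 0.995), so directions below rest on the labels alone. The paper reports loss of FPN in hepatocytes of Fpn-LKO mice, from primary hepatocytes and immunostaining and not from these libraries. The summed level of 10 hepatocyte markers lay between 85243 and 102759 CPM in LT and between 86942 and 95263 CPM in Fpn-LKO. The summed levels of the marker lists for Kupffer cells, stellate cells, lymphocytes, cholangiocytes, red blood cells and pancreatic acinar cells overlapped between the genotypes, whereas 8 endothelial markers summed to 321 to 375 CPM in the LT mice against 298 to 317 CPM in Fpn-LKO (exact two-sided permutation test, p = 0.1, the smallest that 3 mice against 3 can give). The markers in that sum differed in direction: the abundant Stab2, Kdr and Clec4g had log2 fold changes of -0.25, -0.30 and -0.24, and Lyve1, Pecam1 and Tek had 1.30, 0.34 and 0.26. Of the 8, Lyve1 alone had an unadjusted p under 0.05, and its edgeR adjusted p was 0.982. In whole tissue, fewer cells of a type and less RNA per cell cannot be told apart.

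No well-expressed lncRNA passed an adjusted p of 0.05 between the genotypes in the quasi-likelihood test. Of the 224, 222 could be tested, since a gene needed a read in at least 5 of the 6 libraries, and 0 of the 222 had an adjusted p under 0.05, against 0.0232% of all 17274 genes tested. At an unadjusted p under 0.05 there were 24 (10.8%), 4 higher and 20 lower in Fpn-LKO, against 4.80% of all genes (2.62% higher and 2.19% lower). The groups did not overlap for 25 of the 222 (11.3%), against 10.6% of all genes, a share near the background. Of these 25, 5 were higher and 20 lower in Fpn-LKO, against 5.25% and 5.34% of all genes. DESeq2 gave an adjusted p under 0.05 for 2 of the 222 (Neat1 and 4732465J04Rik), against 0.417% of all genes, and edgeR's exactTest, the test named in the methods, for 1 (4732465J04Rik), against 0.365%. The median log2 fold change of the 222 was -0.127, beside -0.004 over all genes tested, and 67.6% of them were negative, beside 50.6% of all genes. These medians carry no test, since genes of one library share its composition. With limma on log2(TPM + 1), only genes with a mean of at least 1 TPM were kept, 177 of the lncRNAs among them. The median was then 0.083 over all genes kept and 0.003 over the lncRNAs, with 48.0% negative beside 30.9% of all genes kept. The 9 lncRNAs at an unadjusted p under 0.05 in limma were 7 higher and 2 lower. This count stands without the share over all genes kept, so it is not read against a background. Both the scale and the genes differ from the main fit.

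**Figure D1:**
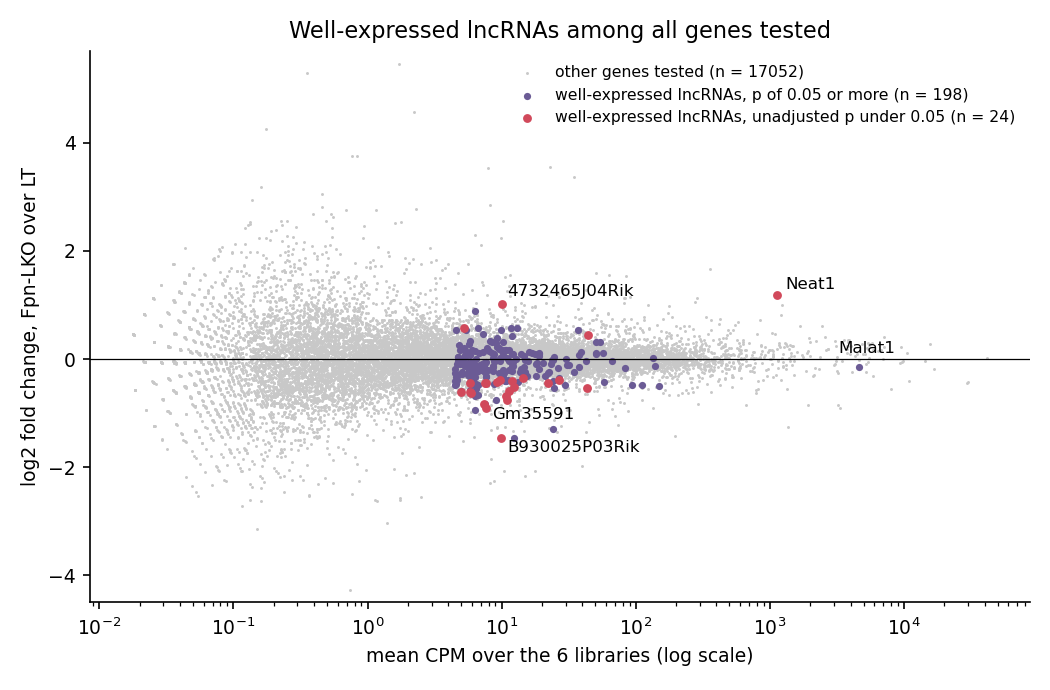
Each point is a gene, with its mean level over the 6 libraries in CPM (horizontal axis, log scale) and its log2 fold change, Fpn-LKO over LT (vertical axis). Grey points are the other genes tested, purple points the well-expressed lncRNAs, and red points the 24 of them with an unadjusted p under 0.05. Most red points lie below 0, with Neat1 (1.19) and 4732465J04Rik (1.01) the highest among them.

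The sequences shown next belong to the 4 lncRNAs with an unadjusted p under 0.05 that were higher in Fpn-LKO. The first is a stretch of 150 bases of the long Neat1 transcript (bases 3073 to 3222, minus strand, chr19:5842257-5842406 of GRCm38, from GENCODE M21), in which the short Neat1 transcript ends at base 3172. The capitals mark the AATAAA poly(A) signal, which begins 20 bases before that end. RNA that is cut there becomes the short form of 3004 bases in GENCODE, and RNA that is not becomes the long form of 20771 bases, the one that builds paraspeckles.
Neat1: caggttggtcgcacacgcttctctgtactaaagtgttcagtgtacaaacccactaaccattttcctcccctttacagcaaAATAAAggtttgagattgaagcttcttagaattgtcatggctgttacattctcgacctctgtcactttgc

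The other 3 are promoters of 300 bases from RefSeq (GRCm38.p6), 250 bases before the start and 50 after it. They lie at chr10:95772883-95773182 on the plus strand for 4732465J04Rik, at chr19:11050517-11050816 on the minus strand for AW112010, and at chr8:70776612-70776911 on the plus strand for 2010320M18Rik. The motifs searched on both strands were the E-box CACGTG, the NF-kappaB motif (GGGA, any 2 bases, then TTCC), the interferon response motif (GAAA, any 2 bases, then GAAA) and the STAT motif TTCNNNGAA, chosen after the sequences were seen, and capitals mark the matches.
4732465J04Rik: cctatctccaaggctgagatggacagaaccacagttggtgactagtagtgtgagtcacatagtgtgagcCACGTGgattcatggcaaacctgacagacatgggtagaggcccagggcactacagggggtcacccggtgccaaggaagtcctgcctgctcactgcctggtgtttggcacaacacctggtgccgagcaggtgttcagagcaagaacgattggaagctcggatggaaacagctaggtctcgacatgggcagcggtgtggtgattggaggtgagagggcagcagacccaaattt
AW112010: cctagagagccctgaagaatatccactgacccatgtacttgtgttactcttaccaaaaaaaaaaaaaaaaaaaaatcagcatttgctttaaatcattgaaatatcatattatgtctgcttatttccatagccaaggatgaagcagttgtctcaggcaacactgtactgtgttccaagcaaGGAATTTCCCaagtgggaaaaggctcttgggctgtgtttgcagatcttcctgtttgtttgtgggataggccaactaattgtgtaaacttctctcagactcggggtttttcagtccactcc
2010320M18Rik: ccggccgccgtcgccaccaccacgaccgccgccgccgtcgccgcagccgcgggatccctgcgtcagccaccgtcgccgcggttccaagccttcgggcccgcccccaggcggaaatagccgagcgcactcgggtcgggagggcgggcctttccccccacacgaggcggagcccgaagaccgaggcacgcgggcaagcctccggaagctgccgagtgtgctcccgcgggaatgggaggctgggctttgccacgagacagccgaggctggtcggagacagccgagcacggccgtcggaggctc

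The 3 promoters differed in base composition, with G or C at 55.7% of the bases for 4732465J04Rik, 40.0% for AW112010 and 74.7% for 2010320M18Rik, and with 7, 1 and 43 CpG. The E-box of 4732465J04Rik begins 181 bases before the start, and 7.24% of all 27025 promoters hold one, as do 11 of the 166 well-expressed lncRNA promoters in the table (6.63%). The match of AW112010 to the NF-kappaB motif begins 70 bases before the start, and 1.43% of all promoters and 4 of the 166 (2.41%) hold one. The promoter of 2010320M18Rik held none of the 4. The interferon response motif was in 3.49% of all promoters and 4.22% of the 166, and the STAT motif in 8.47% and 6.02%. A match describes letters and is not a site at which a factor was measured.

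Neat1 is the scaffold of paraspeckles, nuclear bodies that hold RNA-binding proteins and some retained RNAs. It had 859, 621 and 593 CPM in the LT mice (replicates 1 to 3) against 2291, 1287 and 1154 CPM in Fpn-LKO replicates 1 to 3. All 3 Fpn-LKO libraries lay above all 3 LT libraries, and Fpn-LKO replicate 1 stood well above the rest. The log2 fold change was 1.19 (standard error 0.30, unadjusted p = 0.00445), a fold of 2.28 that did not pass the correction in edgeR's quasi-likelihood test (adjusted p = 0.788). Without Fpn-LKO replicate 1 the log2 fold change was 0.82 (unadjusted p = 0.00704, edgeR), and over the alternatives it lay between 0.82 and 1.38 with adjusted p-values from 0.00673 (DESeq2) to 1 (without LT replicate 2, edgeR). In TPM, which is scaled to transcript length, Neat1 stood at 50.8 ± 8.28 in LT and 109 ± 24.0 in Fpn-LKO (SD, n = 3 each). The exact two-sided permutation test gave p = 0.1, which 3 mice against 3 give whenever the groups do not overlap. Neat1 was named for its low p, so this p adds no support. Its gene lies on chromosome 19 from 5824708 to 5845480, minus strand, 22035 bases from Malat1.

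The deposited counts and FPKM together give the mean length of the Neat1 RNA that StringTie reconstructed, since FPKM is scaled to transcript length. The scale was set on Malat1, listed with 1 transcript over its whole 6983 bases, and on that scale Kcnq1ot1, whose span is 83437 bases, came out between 83440 and 83454 bases. The mean Neat1 length was 20564, 18449 and 13196 bases in LT replicates 1 to 3 and 20749, 19886 and 16349 bases in Fpn-LKO replicates 1 to 3. With the 2 GENCODE lengths, the long transcript then made up 98.8%, 86.9% and 57.4% of Neat1 molecules in LT and 99.9%, 95% and 75.1% in Fpn-LKO. The groups overlapped (81.0 ± 21.4% and 90 ± 13.1%, SD, n = 3 each; exact two-sided permutation test, p = 0.6). In both genotypes the share fell from replicate 1 to replicate 3, and this unpaired test takes no account of replicate numbers. The long transcript alone came to 58.0, 36.7 and 29.6 TPM in LT and 136, 92.1 and 70.1 TPM in Fpn-LKO, again without overlap. It makes up most of Neat1, which was named for its low p, so this adds no support. The short one came to 0.683, 5.51 and 22 TPM in LT and 0.169, 4.83 and 23.2 TPM in Fpn-LKO, with overlap. Both forms share 5′ sequence up to the poly(A) signal shown above, so this split rests on the assignment of shared reads by StringTie. Neat1 also holds repeat-like stretches: its long transcript matched 256 other genes (90% identity, 100 bases or longer), the longest match being 191 bases.

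The proteins that assemble on Neat1 came to no call. Of 14 genes for paraspeckle proteins, among them the core proteins Sfpq, Nono and Pspc1, 0 had an adjusted or an unadjusted p under 0.05 in edgeR (adjusted, 0 by DESeq2 and 0 by exactTest too), and their median log2 fold change was -0.105, with 11 of 14 negative. Their summed level was 664 to 697 CPM in the LT mice against 600 to 688 CPM in Fpn-LKO.

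Malat1, a nuclear RNA of splicing speckles and the neighbour of Neat1, took between 41.6% and 57.2% of all reads on the well-expressed lncRNAs. It had 4181, 4579 and 5764 CPM in the LT mice against 4128, 4792 and 4244 CPM in Fpn-LKO, with overlap and with LT replicate 3 the highest. Its log2 fold change was -0.14 (standard error 0.21, edgeR adjusted p = 0.995). The ratio of Neat1 to Malat1 CPM was 0.205, 0.136 and 0.103 in LT and 0.555, 0.269 and 0.272 in Fpn-LKO, without overlap. The exact two-sided permutation test then has to give p = 0.1, and Neat1 was named for its low p, so this p adds no support.

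**Figure D2:**
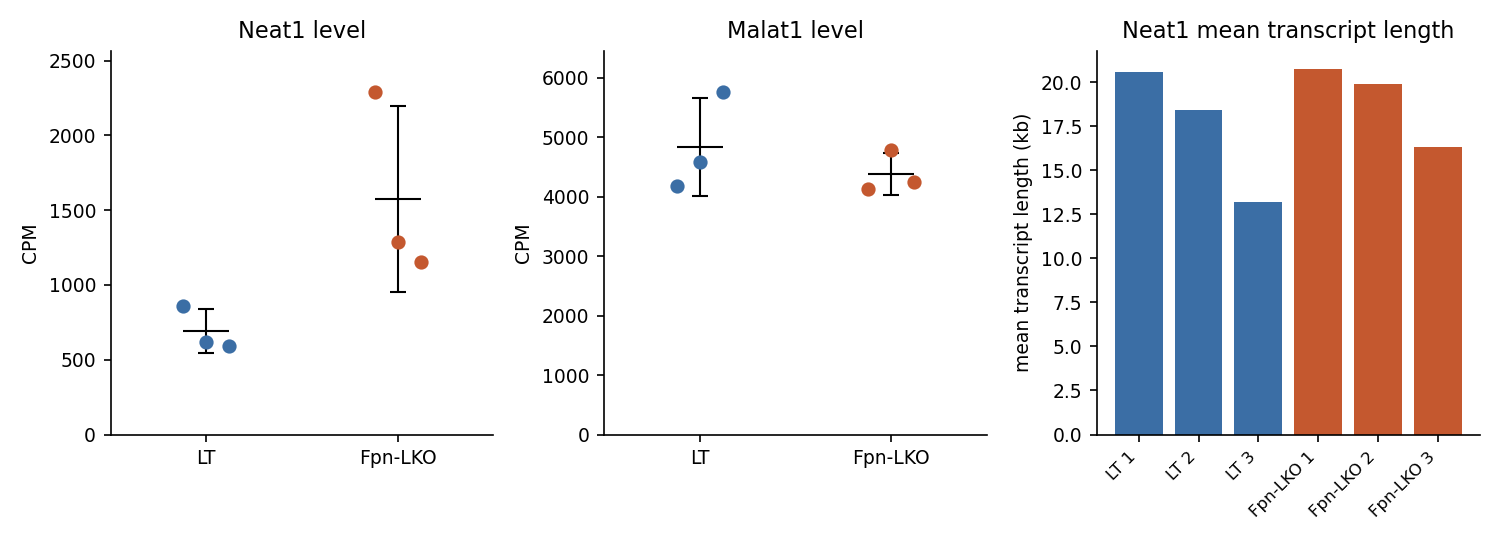
The first 2 panels show the level of Neat1 and of Malat1 in CPM, 1 point per library, with the mean and SD of each genotype in black, and the last shows as bars the mean length of Neat1 RNA in kilobases in each library, from counts and FPKM. Neat1 points of Fpn-LKO (1154 to 2291 CPM) all lie above those of LT (593 to 859 CPM), Malat1 points and Neat1 lengths overlap, and replicate 3 has the shortest mean length in each genotype.

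The other well-expressed nuclear and architectural lncRNAs had no unadjusted p under 0.05. Tug1, a nuclear RNA with roles in chromatin, had 36.9 to 46.8 CPM in the LT mice against 39.1 to 44.2 CPM in Fpn-LKO. The gene 2900097C17Rik (Norad), which binds Pumilio proteins, had 133 to 135 CPM in the LT mice against 125 to 145 CPM in Fpn-LKO. Firre, Oip5os1, Ftx and Lncpint had log2 fold changes of -0.02, -0.03, -0.11 and -0.04. Kcnq1ot1, the imprinted RNA that silences neighbours of Kcnq1 in cis, had 81.1, 80.8 and 166 CPM in the LT mice against 83.6, 69.1 and 83.3 CPM in Fpn-LKO, so that LT replicate 3 alone stood apart (log2 fold change -0.47, standard error 0.28, edgeR adjusted p = 0.982), and without it the log2 fold change was -0.04. Peg13, also imprinted and lying inside Trappc9, had 3.94 to 5.60 CPM in the LT mice against 5 to 6.06 CPM in Fpn-LKO. Over the whole list of nuclear and architectural lncRNAs, in which 9 of 14 tested genes are well-expressed lncRNAs, 1 gene (Neat1) had an unadjusted p under 0.05 and 10 of 14 log2 fold changes were negative. Of 7 imprinted lncRNAs tested, 0 had an adjusted or an unadjusted p under 0.05 in edgeR, and their median log2 fold change was 0.077.

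SnoRNA host genes are spliced to release snoRNAs from their introns, and what is left of many of them is removed by nonsense-mediated decay during translation. Gas5, the host of several box C/D snoRNAs, stood at 49.8 ± 10.2 TPM in LT and 36.0 ± 3.58 TPM in Fpn-LKO (SD, n = 3 each). It had 19.3, 31.8 and 35.9 CPM in the LT mice against 20, 17.6 and 22.6 CPM in Fpn-LKO, with LT replicate 1 among the Fpn-LKO values (log2 fold change -0.53, standard error 0.23, edgeR unadjusted p = 0.0519, adjusted p = 0.982). Snhg1, Snhg6, Snhg8, Snhg12, Snhg17, Snhg20, Zfas1 and Epb41l4aos had log2 fold changes between -0.25 (Snhg17) and 0.04 (Epb41l4aos), with groups that overlapped for each. The hand-written list of snoRNA hosts also held Rnu12, Wdr89 and Mir22hg, the last of which is in the microRNA list too. Of its 22 genes tested, 0 had an adjusted p under 0.05 and 1 an unadjusted one in edgeR, Snhg11. Its listed biotype is protein-coding, with a mean of 83.5 reads, so Snhg11 is not part of the 224. It had 0.743, 0.485 and 0.338 CPM in the LT mice against 4.05, 3.96 and 1.1 CPM in Fpn-LKO (log2 fold change 2.52, standard error 0.57, edgeR adjusted p = 0.649). The median of the list was -0.027, and the proteins of the snoRNP particles had 0 of 17 genes with an adjusted or an unadjusted p under 0.05 and a median of -0.008. Of 20 nonsense-mediated decay factors, 0 had an adjusted p under 0.05 and 1 an unadjusted one (Upf3b, log2 fold change -0.42), with a median of 0.017.

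Among the microRNA hosts, Mir22hg had 41.8, 37.4 and 18.7 CPM in the LT mice against 29.9, 29.0 and 32.5 CPM in Fpn-LKO, and Dleu2, the host of miR-15a and miR-16-1, had 6.60 to 11.4 CPM in the LT mice against 8.33 to 9.44 CPM in Fpn-LKO. Of the 7 hosts tested, 0 had an adjusted or an unadjusted p under 0.05 in edgeR. The spread within LT was as wide as any difference between the genotypes for both.

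Several lncRNAs of the hepatic and metabolic list varied widely between mice of one genotype. Gm15441, which runs against Txnip and responds to fasting and PPAR-alpha agonists, had 20.2, 7.23 and 1.28 CPM in the LT mice against 6.00, 5.65 and 4.55 CPM in Fpn-LKO, so that the LT values enclosed those of Fpn-LKO. Its log2 fold change was -0.83 (standard error 0.77, edgeR adjusted p = 0.988) and became 0.34 without LT replicate 1. Txnip itself had 442, 285 and 210 CPM in the LT mice against 134, 259 and 252 CPM in Fpn-LKO (log2 fold change -0.54). C730036E19Rik had 13.7, 12.9 and 77.1 CPM in the LT mice against 10.4, 18 and 13.8 CPM in Fpn-LKO, a log2 fold change of -1.30 that became 0.08 without LT replicate 3. The gene 9030616G12Rik had 8.98, 2.79 and 1.5 CPM in the LT mice against 13.3, 4.90 and 6.55 CPM in Fpn-LKO (log2 fold change 0.89, standard error 0.65, and 0.37 without Fpn-LKO replicate 1 to 1.94 without LT replicate 1), and 4833411C07Rik had 11.2 to 20.5 CPM in the LT mice against 8.55 to 14.2 CPM in Fpn-LKO. The genes 1810008I18Rik and 4931408D14Rik had log2 fold changes of 0.06 and -0.20, the latter 0.06 without LT replicate 1. Of the 21 genes of this list that were tested, 0 had an adjusted or an unadjusted p under 0.05 in edgeR, and their median log2 fold change was 0.091. By adjusted p, DESeq2 and exactTest each called 0 genes in the imprinted, microRNA host, hepatic, snoRNP, nonsense-mediated decay and 7SK and RNase P lists and 1 snoRNA host, Snhg11.

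The level of the 224 lncRNAs ran from 0.149 to 862 TPM (mean of the 6 libraries), with a median of 3.78 TPM. Together they took 0.879% to 0.959% of all counts in LT and 0.834% to 1.01% in Fpn-LKO. Their summed level was 8697, 8745 and 10077 CPM in the LT mice against 9912, 9364 and 8589 CPM in Fpn-LKO. Without Malat1 it was 4515, 4166 and 4313 CPM in the LT mice against 5784, 4572 and 4345 CPM in Fpn-LKO, and the highest of these, Fpn-LKO replicate 1, is the library with the most Neat1. The 10 with the highest mean TPM were Malat1 (862), Ndufb1-ps (146), BC024386 (109), 0610005C13Rik (84.4), Neat1 (79.9), AW112010 (74.5), Gm31583 (53.9), 9030622O22Rik (52.2), C730029A08Rik (51.6) and Gm2788 (51.1), and from 0610005C13Rik down each differed from the next by less than the spread between mice of the wider one, taken as the larger SD within a genotype. The place of Neat1 rests on a mean over both genotypes, at 50.8 TPM in LT and 109 TPM in Fpn-LKO, a contrast without a call in edgeR's quasi-likelihood test. Gm31583 had 91.7, 218 and 218 CPM in the LT mice against 52.3, 168 and 154 CPM in Fpn-LKO, so that replicate 1 was the lowest in both genotypes. The gene 9030622O22Rik, near Foxa2, had 85.2, 90 and 87.6 CPM in the LT mice against 80.9, 84.4 and 69.7 CPM in Fpn-LKO, without overlap but with a log2 fold change of only -0.16. The biotype is that of the deposited table: 5 of the 224 (1810058I24Rik, Mtln, 0610012G03Rik, Gm10033 and Ndufb1-ps) are listed as protein-coding in the RefSeq table of GRCm38.p6.

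The spread between mice of a genotype was wider for these lncRNAs than for protein-coding genes of like count. The median within-group SD of log2 CPM was 0.331 over the 222, and for means of 200 to 500 reads it was 0.335 for lncRNAs and 0.248 for protein-coding genes. The 3 widest were Gm20716, Gm3734 and LOC102640754. Gm20716, which overlaps Adnp and Dpm1 on the same strand, had 2014, 2138 and 0 reads in LT and 2450, 2416 and 1303 reads in Fpn-LKO, while Adnp and Dpm1 were each highest in the LT library in which Gm20716 was listed at 0 (29.2 and 49.5 CPM). Gm3734 had 0.522, 39.0 and 14.9 CPM in the LT mice against 0.524, 12.1 and 7.13 CPM in Fpn-LKO, and LOC102640754 had 0.201, 3.07 and 11.7 CPM in the LT mice against 1.34, 5.74 and 7.87 CPM in Fpn-LKO, both lowest in replicate 1 of each genotype.

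Besides Neat1, 3 lncRNAs with an unadjusted p under 0.05 were higher in Fpn-LKO, and for all 3 the groups did not overlap. The intergenic gene 4732465J04Rik, on chromosome 10 from 95773133 to 95794984, had 8.28, 6.21 and 5.51 CPM in the LT mice against 10.9, 14.2 and 15.2 CPM in Fpn-LKO. The log2 fold change was 1.01 (standard error 0.21, fold 2.01, unadjusted p = 0.00152), with an edgeR adjusted p of 0.590 and from 0.00673 (DESeq2) to 1 (without LT replicate 2, edgeR) over the alternatives, and values between 0.89 and 1.2. AW112010, known from activated immune cells as an RNA induced by inflammation, had 44.2, 32 and 35.1 CPM in the LT mice against 52.5, 45.6 and 53.6 CPM in Fpn-LKO, with the lowest Fpn-LKO library just above the highest LT library (log2 fold change 0.44, standard error 0.15, edgeR adjusted p = 0.982). Beside it, the summed level of 10 markers of Kupffer cells and macrophages was 356 to 461 CPM in the LT mice against 301 to 669 CPM in Fpn-LKO, and that of 7 lymphocyte markers 14.5 to 22.6 CPM and 12.2 to 36.7 CPM, and their part in the AW112010 difference was not tested. The gene 2010320M18Rik, on chromosome 8 from 70776862 to 70777606 and within 5000 bases of Pik3r2 and Mast3, had 4.3, 4.13 and 4.23 CPM in the LT mice against 6.54, 5.42 and 6.98 CPM in Fpn-LKO (log2 fold change 0.58, standard error 0.18, edgeR adjusted p = 0.982). Of its neighbours, Pik3r2 had a log2 fold change of 0.55 and Mast3 one of -0.30, and neither had an unadjusted p under 0.05 in edgeR.

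The 20 with an unadjusted p under 0.05 that were lower in Fpn-LKO were mostly RNAs that overlap protein-coding genes, as are most of the well-expressed lncRNAs. Among them 17 overlap the span of a protein-coding gene in RefSeq and 3 do not, beside 125 of all 222 with a position. The gene 8030431J09Rik, inside Abtb2, stood highest in CPM among them, with 46.6, 54.1 and 52.3 CPM in the LT mice against 30.6, 34.5 and 40.6 CPM in Fpn-LKO. The groups did not overlap (log2 fold change -0.53, standard error 0.13, edgeR adjusted p = 0.791), whereas Abtb2 had 4.98, 5.38 and 7.06 CPM in the LT mice against 4.68, 7.28 and 7.03 CPM in Fpn-LKO. Gm35591, which lies on chromosome 1 from 91443003 to 91457770 and runs against the clock gene Per2, had 11.4, 10.9 and 7.90 CPM in the LT mice against 6.83, 4.82 and 4.42 CPM in Fpn-LKO (log2 fold change -0.91, standard error 0.23, edgeR adjusted p = 0.806). Per2 overlapped between the genotypes, with 23.1, 22.2 and 33.8 CPM in the LT mice against 25.2, 30.6 and 24.1 CPM in Fpn-LKO.

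Several others also lay within protein-coding genes. Gm38679, inside Fbp1, the gluconeogenic fructose bisphosphatase, had 11.9, 16.9 and 10.8 CPM in the LT mice against 9.25, 9.89 and 5.54 CPM in Fpn-LKO, while Fbp1 itself had a log2 fold change of 0.00. Gm46809, inside Gatb, had 11.1, 11 and 9.52 CPM in the LT mice against 7.04, 7.52 and 9.05 CPM in Fpn-LKO, with 0.12 for Gatb. Tbrg3, inside Tcf20, had 8.30, 8.87 and 9.33 CPM in the LT mice against 7.61, 6.53 and 5.43 CPM in Fpn-LKO, with -0.01 for Tcf20. These pairs show a lower lncRNA beside a protein-coding gene near 0. The same held in kind for LOC115489729 in Ahcyl1 (-0.44 and -0.04), LOC115487346 in Gpatch2 (-0.63 and -0.13), LOC115487153 in Dpy19l1 (-0.39 and -0.14) and 6430590A07Rik against Abhd18 (-0.45 and -0.15). It did not hold for LOC115487458, whose log2 fold change of -0.60 stood beside -0.54 for its host Ank3, nor for Gm42127 (-0.36) in Hnrnpd (-0.27), and LOC115486294 (-0.60) stood beside -0.23 in Akap9. Ank3 and Akap9 were the only hosts of the 18 tested with an unadjusted p under 0.05 in edgeR (0.0182 and 0.0426), and 0 had an adjusted one. Gm26908 (-0.75) overlaps Sorbs3 (0.23) and Ppp3cc (-0.39), and Gm46436 (-0.32, unadjusted p = 0.0625) lies in Cert1 (-0.19). The lncRNAs were picked for their low p, so their larger size beside the hosts follows in part from the choice.

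The lower lncRNAs clear of protein-coding genes were AW549542, Gm10033 and B930025P03Rik. AW549542 had 10.2, 10.5 and 7.49 CPM in the LT mice against 6.79, 4.84 and 4.29 CPM in Fpn-LKO (log2 fold change -0.82). Gm10033 had 13.4, 14.9 and 15.3 CPM in the LT mice against 8.13, 9.94 and 12.5 CPM in Fpn-LKO (-0.51), and it shares 685 bases at 90.1% identity with Gm45684, so reads could be split between copies. B930025P03Rik had 25.8, 12.9 and 5.17 CPM in the LT mice against 2.41, 4.86 and 8.64 CPM in Fpn-LKO, a log2 fold change of -1.46 with groups that overlapped. Of the others in this set, 6430590A07Rik shares 3068 bases at 96.3% identity with Mfsd8. Groups overlapped for the remaining 4 with a low p, Gm26588 in Mgll, Gm33047 in Hibadh, LOC115489130 in Lamp2 and Gm40406 in Zfp277. Counts of all lncRNAs that overlap another gene are uncertain, since the kit in the labels keeps strand but the setting used in counting is not given in the sources used here.

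**Figure D3:**
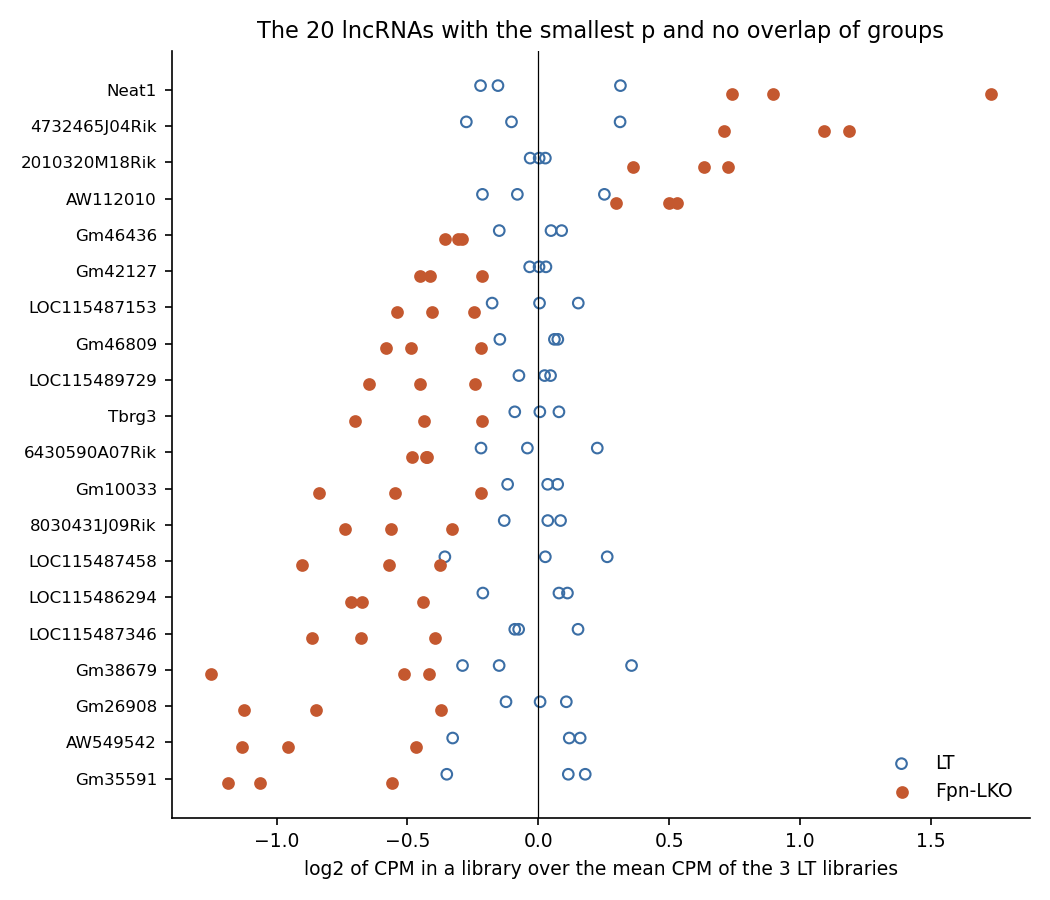
The 20 lncRNAs with the smallest unadjusted p among those whose groups do not overlap, ordered by log2 fold change; each point is 1 library, as log2 of its CPM over the mean of the 3 LT libraries (horizontal axis), with open circles for LT and filled circles for Fpn-LKO. Neat1, 4732465J04Rik, 2010320M18Rik and AW112010 are to the right of LT and the other 16 to the left, and the gap between the groups is narrow for AW112010 and LOC115487458.

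Across the whole set, lncRNAs that overlap protein-coding genes had a lower median log2 fold change than those that do not, most clearly apart from those on the opposite strand. Of the 222 well-expressed lncRNAs with a position, 125 overlap a protein-coding gene's span (89 of them wholly inside it), 50 on the same strand, 45 on the opposite strand and 30 with a strand that could not be read. Over the 124 of these that were tested, the median log2 fold change was -0.212, with 75% negative and 17 (13.7%) at an unadjusted p under 0.05, all lower. Over the 96 tested that overlap none, the median was -0.039, with 58.3% negative and 7 (7.29%) at that threshold, 4 higher and 3 lower. The protein-coding genes that were overlapped, 128 tested, had a median of -0.018. By strand, the median was -0.233 for 49 on the same strand as a protein-coding gene, -0.092 for 45 on the opposite strand and -0.281 for 30 whose strand is not known. Among the 96, the median was -0.009 for 40 within 5000 bases of a protein-coding gene and -0.069 for 56 with none so near. Those 56 (62.5% negative) were close to the opposite-strand lncRNAs (62.2% negative). With limma on log2(TPM + 1), only genes with a mean of at least 1 TPM were kept, which left 80 lncRNAs that overlap a protein-coding gene and 95 that do not. Their medians were -0.039 for the 80, with 55% negative, and 0.053 for the 95, beside 0.083 for all genes kept. The gap was -0.092, beside -0.172 in the main fit, but both the scale and the genes had changed. The split was made after the values were seen, and no test was made of it.

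**Figure D4:**
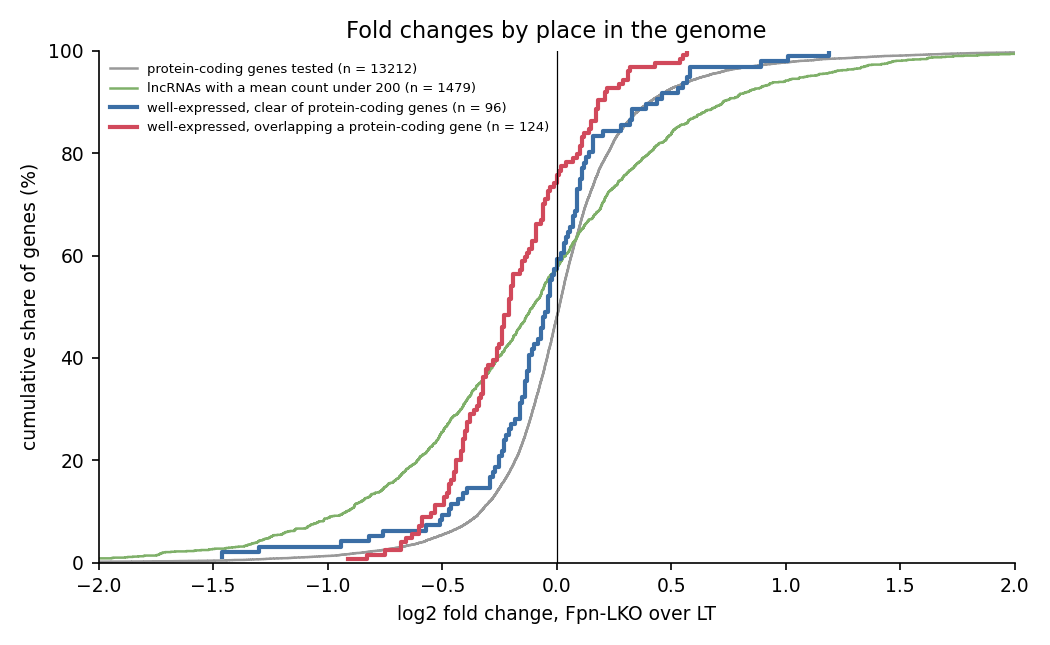
Cumulative share of genes in percent (vertical axis) by log2 fold change, Fpn-LKO over LT (horizontal axis, shown from -2 to 2), for 4 sets, the thin green line being lncRNAs with a mean under 200 reads. The curve of the 124 well-expressed lncRNAs that overlap a protein-coding gene runs to the left of the 96 that do not over most of its range, with 75% and 58.3% below 0, and that of 13212 protein-coding genes has 48.0% below 0.

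The length implied by counts and FPKM is that of the transcript model used in counting, so it separates models with little or no intron from spliced ones and does not show where the reads fell. It reached 90% of the span for 68 of the 222 with a position. Among the 53 of these that were tested and overlap a protein-coding gene, the median log2 fold change was -0.311, with 83.0% negative. Among 71 that overlap one but have a shorter model, it was -0.188, with 69% negative. Among the 14 that reached 90% and overlap no protein-coding gene, Neat1 and 2010320M18Rik among them, it was -0.073. The gene 8030431J09Rik, for example, came out at 72237 to 72277 bases over a span of 72653 bases.

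By library, the median deviation of the overlapping lncRNAs from their mean log2 CPM over the 6 libraries was 0.171, 0.057 and 0.034 in LT and 0.062, -0.077 and -0.247 in Fpn-LKO. The groups overlapped, since Fpn-LKO replicate 1 lay between LT replicates 1 and 2, and Fpn-LKO replicate 3 stood apart as the lowest. The lncRNAs clear of protein-coding genes had medians of 0.141, -0.046 and -0.057 in LT and -0.017, -0.053 and 0.1 in Fpn-LKO. Without Fpn-LKO replicate 3 the medians of the log2 fold change were -0.130 (overlapping) and -0.077 (clear), so the gap between the sets went from -0.172 to -0.053. Without LT replicate 1 the median of all 222 was -0.053, in place of -0.127. Protein-coding genes with a mean of at least 200 reads had medians between -0.010 and 0.023 in every library. Small structured RNAs without a poly(A) tail, such as the 7SL RNA of the signal recognition particle, took 7.65% to 8.76% of counts in LT and 3.29% to 10.2% in Fpn-LKO, with overlap, and their part in the lower lncRNAs was not tested. The list of proteins that bind telomerase RNA, 7SK and the RNase P and MRP RNAs had 0 of 23 genes with an adjusted or an unadjusted p under 0.05 in edgeR.

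**Figure D5:**
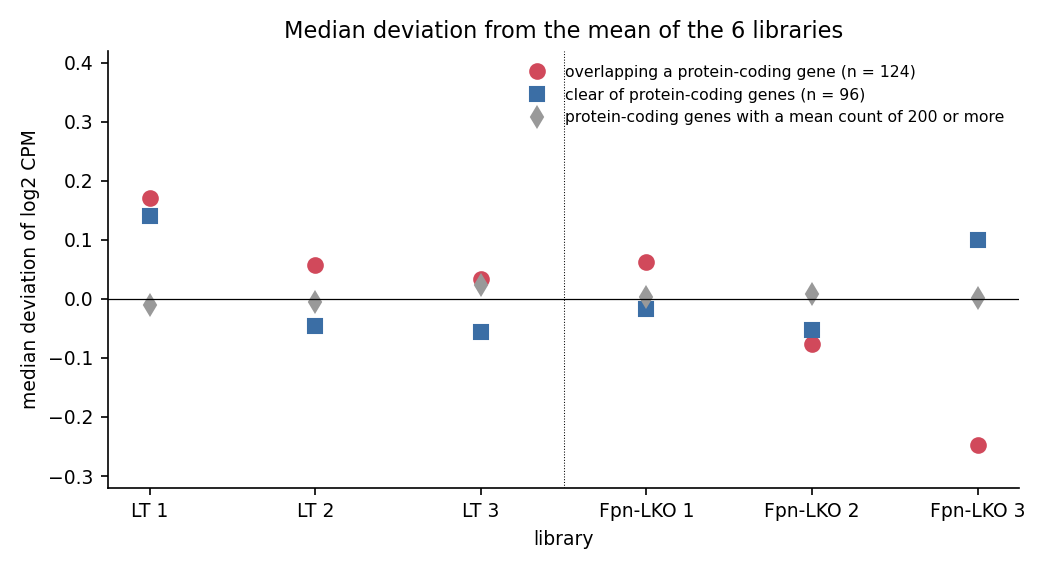
Median deviation of log2 CPM from each gene's mean over the 6 libraries (vertical axis) in each library (horizontal axis), for well-expressed lncRNAs that overlap a protein-coding gene (circles), those that do not (squares) and protein-coding genes with a mean of at least 200 reads (diamonds). The circles lie between -0.247 in Fpn-LKO 3 and 0.171 in LT 1, with Fpn-LKO 1 among the LT values, and the diamonds stay within 0.023 of 0.

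The 1479 lncRNA rows under the mean of 200 that were tested had a median log2 fold change of -0.105, with 57.5% negative and 5.14% at an unadjusted p under 0.05. In 3 classes of rising mean count among the well-expressed lncRNAs (136, 46 and 40 genes) the medians were -0.135, -0.107 and -0.120, and those of protein-coding genes in the same classes were 0.013, 0.010 and 0.004.

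The 2 lncRNAs that could not be tested were Gm46829 and Urml, chosen for mention after their values were seen. Gm46829, which lies inside Hs2st1 on the same strand, on chromosome 3 from 144540766 to 144556943, had 0, 0 and 0 reads in LT and 580, 398 and 487 reads in Fpn-LKO. With a floor of 3 counts per library for LT, its listed level was at least 154-fold higher in Fpn-LKO, a bound given as a description. Hs2st1 had 16.4, 16.7 and 19.9 CPM in the LT mice against 21.3, 16.1 and 16.2 CPM in Fpn-LKO. How reads were assigned between Gm46829 and Hs2st1 was not tested, so the bound covers listed reads and not expression. It reached the mean of 200 reads only through Fpn-LKO, in which it is high, and so had to differ. The edgeR fits that admit it (all genes with at least 1 read, 0.0215% of them called, and filterByExpr, 0.0318% called) call it for that reason and are no support. Urml, on chromosome 13, had 0, 0 and 229 reads in LT and 0, 509 and 671 reads in Fpn-LKO, and so was listed at 0 in 3 libraries across both genotypes.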

How the data were processed

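RNA of 6 livers (3 per genotype, labelled as 1 batch) was sequenced, and mm10 was the build the authors used; their deposited table holds read counts, FPKM and TPM per gene. The submitters' processing notes name bcl2fastq 2.20.0, FastQC 0.11.7, HISAT2 2.1.0, Bowtie2 2.3.4.1 and StringTie 2.1.3b. The deposited counts are unnormalized and the deposited FPKM and TPM values are scaled to length and depth by the authors. The labels name a stranded mRNA kit and the methods total RNA, and the strand setting of the counting is not given in the sources used here.

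A gene could have 0 reads in at most 1 library, and the 17274 that remained were fitted with edgeR 4.0.16 (R 4.3.3; TMM scaling, quasi-likelihood F-test, Fpn-LKO against LT, Benjamini-Hochberg adjustment over all genes tested, threshold 0.05). The methods' exactTest, DESeq2 1.42.0, limma 3.58.1 on TPM, other filters and scalings, a replicate block and leaving out each library were alternatives, and the scripts were tested on simulated data. There, 14 of 172 calls were false with the quasi-likelihood test, 39 of 212 with exactTest and 51 of 230 with DESeq2. Of genes changed by a log2 of 1, these tests recovered 61%, 76% and 81%. The changed genes were drawn from genes of any biotype with a mean of at least 200 reads. Recovery for the lncRNAs alone was not measured. Their median within-group SD of log2 CPM was wider, at 0.331 beside 0.192 for protein-coding genes with that mean. P-values rest on 3 mice per group. Total counts of 43086184 to 47778683 limit rare RNAs, and the floor of 3 counts covers counting error only. Implied lengths came from counts over FPKM, scaled on Malat1. Positions, promoters and neighbours came from RefSeq (GRCm38.p6) and transcripts from GENCODE M21, in which copies were searched with BLAST 2.17.0 (90% identity over 100 bases).

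The lncRNAs and gene lists were chosen with earlier results of these data known. Named genes were Slc40a1 and any lncRNA with an adjusted p under 0.05. Also named were the 20 lncRNAs with the smallest unadjusted p among those whose groups do not overlap. The protein-coding genes that overlap those 20, or whose span comes within 5000 bases of theirs, were named with them. So were the 10 lncRNAs with the highest mean TPM, the 3 of widest spread, the 3 on either side of the mean of 200 and the lncRNAs of the lists. Gm46829, Urml, Snhg11, Upf3b, those with a low p but overlapping groups and their neighbours, and other protein-coding neighbours were named after their values were seen.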

Additional observations from a re-analysis of the deposited data

How the results depend on the processing

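The number of well-expressed lncRNAs with an adjusted p under 0.05 was 0 with edgeR's quasi-likelihood test, 2 with DESeq2, 1 with exactTest, and 1 each when genes with at least 1 read or those kept by filterByExpr were tested (Gm46829 in both, which had to differ, since it passed the mean of 200 reads only through Fpn-LKO). Over all genes it was 4, and 72 with DESeq2, 63 with exactTest, 7 with limma at either TPM pseudocount (1 or 0.1), and 0 with the replicate block. The labels do not state that replicate numbers pair mice, although same-numbered libraries carry adjacent library numbers. Deviations of same-numbered libraries correlated weakly over all genes tested (0.129, -0.00948 and 0.0448). Some values, such as the share of the long Neat1 transcript, still ran in the same order by replicate in both genotypes. Whether these libraries shared an order or a litter was not tested. With the block 27 lncRNAs had an unadjusted p under 0.05 in place of 24. With limma, for genes with a mean of at least 1 TPM, this number was 9 at either pseudocount. The median log2 fold change of the lncRNAs kept was 0.003 and 0.018, beside 0.083 and 0.097 for all genes kept. With a mean of at least 100 or 500 reads as the rule, 41 and 10 lncRNAs were under it. Without those that overlap a protein-coding gene there were 7 and the median was -0.039, and with only those the median was -0.212, both chosen after seeing the data. Leaving out 1 library gave 0 to 6 genes over all (0 without LT replicate 2, and 1 each without LT replicate 1, LT replicate 3 or Fpn-LKO replicate 2), 0 lncRNAs by adjusted p, 16 to 33 by unadjusted p, and medians from -0.177 to -0.053. Cause was not tested for any of these. The alternatives' counts at an unadjusted p stand without the share over all genes, so they are not read against a background. Of 742 alternatives for 54 single genes, 692 kept direction and side of the threshold, 3 passed it and 47 reversed, all of genes without a call. With TPM pseudocounts of 1 and 0.1 the log2 fold change was 0.06 and 0.06 for 0610005C13Rik, 0.06 and 0.07 for Firre, 0.04 and 0.05 for Lncpint, 0.06 and 0.07 for Mir22hg, 0.06 and 0.06 for Oip5os1, 0.11 and 0.12 for Tug1, and 0.05 and 0.06 for Zfas1. Leaving out 1 library gave ranges of -0.19 to 0.24 for 0610005C13Rik, -0.02 to 0.08 for 2900097C17Rik, -0.46 to 0.06 for 4931408D14Rik, -0.29 to 0.03 for BC024386, -1.68 to 0.08 for C730036E19Rik, 0.37 to 1.94 for 9030616G12Rik, -0.15 to 0.27 for Dleu2, -0.21 to 0.24 for Epb41l4aos, -0.10 to 0.09 for Firre, -0.28 to 0.06 for Ftx, -1.34 to 0.34 for Gm15441, -0.12 to 0.07 for Lncpint, -0.38 to 0.12 for Mir22hg, -0.10 to 0.03 for Oip5os1, -0.12 to 0.14 for Slc40a1, -0.49 to 0.23 for Snhg1, -0.30 to 0.05 for Snhg12, -0.20 to 0.05 for Snhg6, -0.12 to 0.04 for Tug1 and -0.20 to 0.21 for Zfas1.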
